A study of Mus musculus with 12 samples.

Results

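The 10 genes described here are the receptors Notch1, Notch2, Notch3 and Notch4, the ligands Jag1, Jag2 and Dll1, and the target genes Hes1, Heyl and Nrarp. They were found by their gene names among the 54347 genes of a Salmon count table, and all 10 were among the 15319 genes that passed the filter on low counts and were tested. RNA was sequenced from mouse PYMT cells, a mammary tumour line named for the polyoma middle T antigen, grown as 3-dimensional cultures in matrigel. There were 4 groups of 3 libraries: cells given TGFB2, cells given BMP4, cells given both ligands (BMP4-TGFB2) and untreated cells (NT). Ligand doses were 5 ng/mL over 3 days, after which the medium was changed and the cells were harvested 2 days later, so the measurements come from a time after the treatment. All groups share the cell line and the matrigel, and the labels give no clone, passage or driver of the antigen. The study asked which programs each ligand sets off in relation to dormancy, a lasting growth arrest of tumour cells.

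Notch signalling passes between neighbouring cells. A Jagged or Delta-like ligand on one cell binds a Notch receptor on the next, proteases of the ADAM family and then gamma-secretase cut the receptor, and its freed intracellular part enters the nucleus and joins the DNA-binding protein RBPJ and a Mastermind-like coactivator. Genes switched on by this complex include the repressors of the Hes and Hey families and Nrarp, which in turn limits the pathway. In the mammary gland, Notch receptors are best known for their part in luminal cell fate. TGFB2 and BMP4 belong to the same ligand family but signal mainly through different receptor-activated SMAD proteins.

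Library totals ran from 28543128 to 42167771 counts, and levels are given as CPM, a gene's count relative to its library's TMM-scaled total. Adjusted p-values come from edgeR's quasi-likelihood test with Benjamini-Hochberg adjustment over all 15319 genes, and a gene was called below 0.05. A log2 fold change is followed by its SE, and a mean level by the SD of its 3 libraries. The labels name the replicates biological but give no day, passage or culture for them, and the p-values refer to the spread among these libraries, which may be technical. Of the response genes checked, the inhibitor Smad7 rose with TGFB2 (log2 fold change 1.63), BMP4 (1.57) and both (2.16), and the BMP target Id1 rose with BMP4 (1.12) and both (0.91), while with TGFB2 its change was 0.36 (adjusted p = 0.122). The 6 luminal and general epithelial markers summed to 3661 to 4419 CPM over the 12 libraries, and 3 of them (Elf5, Krt19 and Cdh1) fell with TGFB2 and with both, and 1 (Elf5) with BMP4. The 6 endothelial markers summed to 1.80 to 4.29 CPM, the 6 leukocyte markers, of which Laptm5 rose with TGFB2, to 3.12 to 9.95 CPM, and none of these was at 0 in every library. Markers of cycling cells summed to 502 to 1687 CPM with TGFB2, 1504 to 2430 CPM with BMP4, 359 to 1555 CPM with both and 1601 to 2448 CPM in NT, lowest in the replicate 1 library of each group, and 0 of the 8 was called against NT. In bulk RNA, fewer cells of a type and less RNA per cell cannot be told apart.

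Against NT, 4 members rose with TGFB2 (Notch2, Notch4, Jag1 and Hes1), 2 with BMP4 (Jag1 and Hes1) and 4 with both ligands (Notch2, Jag1, Jag2 and Hes1), and 0 fell in any of these comparisons. Of all genes tested, 22.4% were called with TGFB2 (11.3% higher, 11.1% lower), 5.45% with BMP4 (3.21% higher, 2.25% lower) and 26.2% with both (13.3% higher, 12.9% lower). The median log2 fold change of the members was 0.69 with TGFB2, 0.73 with BMP4 and 0.64 with both, beside 0.01, 0.00 and 0.01 over all genes tested. Every treated library lay outside the range of the NT libraries for 5 members with TGFB2, 4 with BMP4 and 5 with both, where 38.5%, 23.8% and 41.3% of all genes tested were separated in this way. These comparisons share the NT libraries. Same-numbered replicates deviated together in the comparisons of TGFB2 and of BMP4 with NT, and with the replicate number as a block 5 members rose with TGFB2 (37.8% of all genes called) and 5 with BMP4 (15.4%). With both ligands, where such pairing is not settled, the block gave 5 members higher and 2 lower (41.4% of all genes called).

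**Figure D1:**
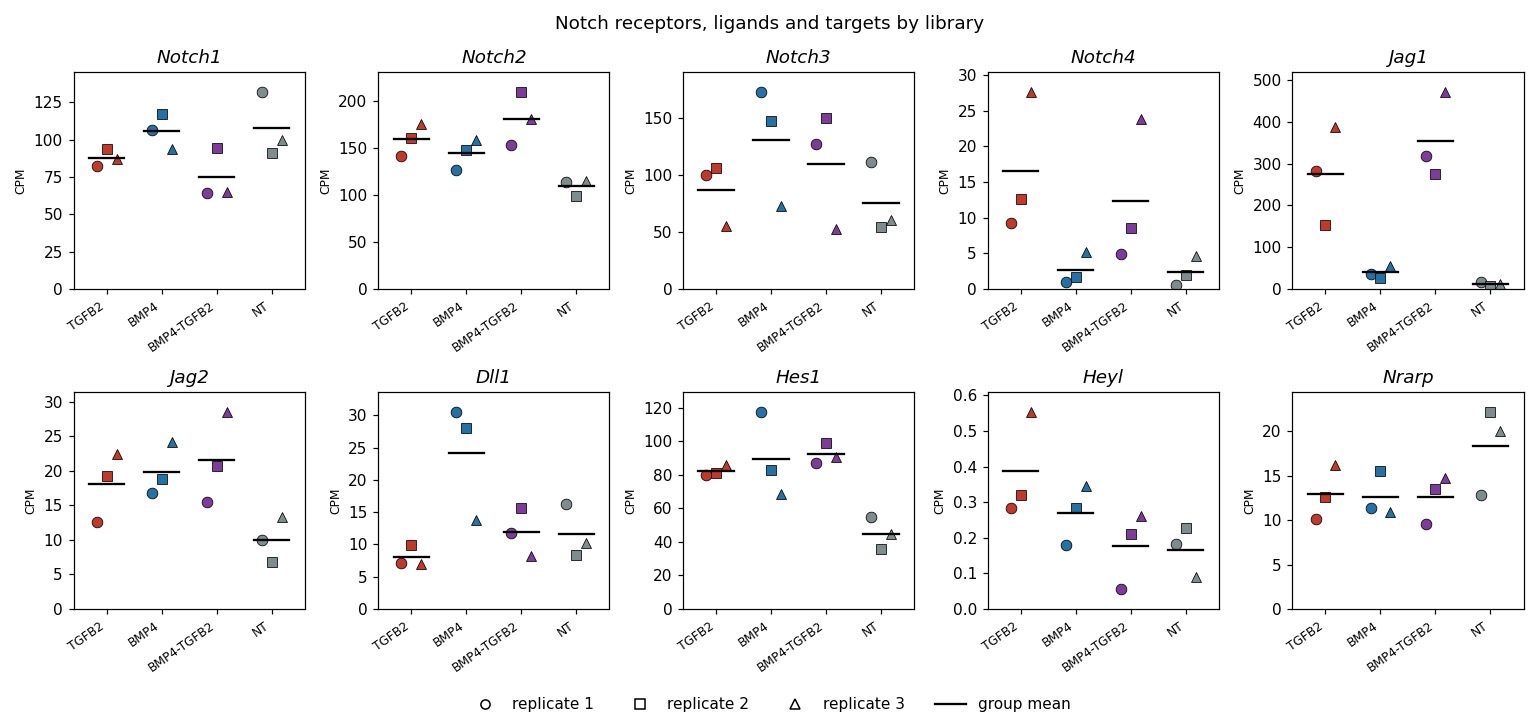
CPM of the 10 members in each of the 12 libraries, by group, with the replicate number as the symbol and a bar at the group mean; each panel has its own linear axis from 0. Jag1 averaged 274.7 CPM with TGFB2 and 355.7 CPM with both ligands, against 11.5 CPM in NT, and Dll1 was highest with BMP4 alone.

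Jag1, a Jagged ligand of all the Notch receptors, had the largest change of the 10 members with each treatment. It had 284, 152 and 388 CPM in the TGFB2 libraries, 36.8, 26.5 and 54.9 CPM in the BMP4 libraries and 318, 275 and 473 CPM with both, against 15.5, 6.52 and 12.5 CPM in NT. The lowest library of each treatment was above the highest NT library. With TGFB2 Jag1 rose by 4.58 ± 0.46 on the log2 scale (23.9-fold; adjusted p = 6.2e-05), and with both ligands by 4.95 ± 0.46 (adjusted p = 3.5e-05). With BMP4 it rose by 1.78 ± 0.41 (3.43-fold, adjusted p = 0.0288), and by 1.77 ± 0.19 with the replicate block (adjusted p = 0.00043). This smaller rise lost its call without BMP4 replicate 1 (adjusted p = 0.0634) or 3 (0.101), without NT replicate 2 (0.117) or 3 (0.0713), in limma voom (0.0523), in limma on log2(TPM + 1) (0.0509) and with no replicate 1 library (0.0888). The protein-coding gene (ENSMUSG00000027276.7) lies on chromosome 2, 137081456 to 137116644 (GRCm38, GENCODE M21, minus strand).

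Promoter windows of 300 bases, from 250 before to 50 after the annotated start, were taken from RefSeq (GRCm38.p6) and matched 8 of the 10 members by symbol, with 2 windows for Dll1. Hes1 and Heyl were not matched. The windows were searched on both strands for a SMAD element, CAGAC or its complement GTCTG, which 49.6% of all 32851 windows hold, and for the RBPJ core TGGGAA or its complement TTCCCA, which 25.6% hold. The pairs TTCCCA and CAGAC, and GTCTG and TGGGAA, can overlap by their end letters. The SMAD element was found in the windows of Notch3, Notch4, Jag1, Dll1 and Nrarp, and the RBPJ core in none of the members' windows. Those of Jag1 and Notch4, the members with the largest rises, and of Dll1, the member highest with BMP4, are given in gene orientation with the SMAD element in capitals. They lie at chr2:137116471-137116770 (minus strand) for Jag1, chr17:34564045-34564344 (plus strand) for Notch4, and chr17:15375774-15376073 and chr17:15376883-15377182 (minus strand) for Dll1.
Jag1: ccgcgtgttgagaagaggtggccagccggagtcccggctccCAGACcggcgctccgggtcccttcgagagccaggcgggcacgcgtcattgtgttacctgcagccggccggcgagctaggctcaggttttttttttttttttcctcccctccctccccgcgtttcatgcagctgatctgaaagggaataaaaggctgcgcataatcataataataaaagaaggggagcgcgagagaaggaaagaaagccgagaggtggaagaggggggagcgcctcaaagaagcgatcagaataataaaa
Notch4: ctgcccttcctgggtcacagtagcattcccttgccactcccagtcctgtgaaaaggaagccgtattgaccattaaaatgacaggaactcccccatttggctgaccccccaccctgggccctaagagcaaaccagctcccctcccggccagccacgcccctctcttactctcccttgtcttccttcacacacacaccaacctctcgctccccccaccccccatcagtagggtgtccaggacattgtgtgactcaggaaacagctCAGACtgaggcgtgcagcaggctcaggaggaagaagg
Dll1, downstream window: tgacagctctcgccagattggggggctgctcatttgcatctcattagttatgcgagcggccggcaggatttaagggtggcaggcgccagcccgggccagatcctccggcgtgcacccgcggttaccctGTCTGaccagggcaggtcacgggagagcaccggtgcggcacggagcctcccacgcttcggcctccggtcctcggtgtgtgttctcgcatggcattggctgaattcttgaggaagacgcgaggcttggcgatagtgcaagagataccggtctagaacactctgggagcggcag
Dll1, upstream window: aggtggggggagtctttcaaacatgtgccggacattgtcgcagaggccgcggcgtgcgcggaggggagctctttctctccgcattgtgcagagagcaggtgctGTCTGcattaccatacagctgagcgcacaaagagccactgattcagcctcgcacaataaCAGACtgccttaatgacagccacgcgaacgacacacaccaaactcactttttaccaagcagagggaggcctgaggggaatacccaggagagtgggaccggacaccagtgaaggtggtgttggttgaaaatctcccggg
The Jag1 and Notch4 windows hold 1 match each, and those of Dll1 hold 1 and 2, a description of these letters that says nothing of binding.

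Jag2, the other Jagged ligand, had 12.5, 19.2 and 22.4 CPM with TGFB2, 16.8, 18.8 and 24.1 CPM with BMP4 and 15.4, 20.6 and 28.5 CPM with both, against 9.97, 6.86 and 13.3 CPM in NT. The libraries with BMP4 and with both ligands all lay above NT, while TGFB2 replicate 1 lay below NT replicate 3. The rise with both ligands, 1.10 ± 0.30 log2 units, was called (adjusted p = 0.0204). It was not called without BMP4-TGFB2 replicate 3 (adjusted p = 0.0771), without NT replicate 2 (0.0820) or in limma on TPM values (0.0910 to 0.0965). With TGFB2 the change of Jag2 was 0.85 ± 0.30 (adjusted p = 0.0658) and with BMP4 0.99 ± 0.30 (adjusted p = 0.0891). Both were called with the replicate block, at 0.84 (adjusted p = 0.00625) and 0.99 (adjusted p = 0.00717). The TGFB2 change was also called without TGFB2 replicate 1 (adjusted p = 0.0402), without NT replicate 3 (0.0460) and with no replicate 1 library (0.0448). Altogether 6 of 15 alternatives called it, DESeq2 among them. DESeq2 and the fit with no filter called the BMP4 change too (adjusted p at most 0.0262).

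Dll1, a Delta-like ligand found in basal cells of the mouse mammary gland, had its highest levels with BMP4 alone. It had 30.6, 28.1 and 13.8 CPM with BMP4, 7.19, 9.90 and 6.93 CPM with TGFB2 and 11.8, 15.7 and 8.27 CPM with both, against 16.2, 8.41 and 10.2 CPM in NT. The BMP4 libraries lay above all TGFB2 libraries, but BMP4 replicate 3 lay below NT replicate 1. Against NT, Dll1 changed by 1.05 ± 0.35 with BMP4 (adjusted p = 0.112; 0.99 and adjusted p = 0.0342 with the replicate block), by -0.54 ± 0.35 with TGFB2 (adjusted p = 0.297) and by 0.04 ± 0.34 with both (adjusted p = 0.952). DESeq2 and the fit with no filter also called the BMP4 change (adjusted p at most 0.0370). The basal markers summed to 1038 to 1330 CPM with BMP4, 362 to 600.1 CPM with TGFB2 and 456 to 967 CPM with both, against 207 to 429 CPM in NT. Most of each sum was Krt14, with 1115, 1299 and 989.6 CPM in the BMP4 libraries. Of the 5 tested, Krt14 rose with BMP4 (1.99) and with both (1.42) and 0 with TGFB2. The others were not called against NT, and with BMP4 Krt5 (1.22), Mme (0.50) and Acta2 (0.12) were above 0 and Trp63 (-0.92) below. The part of these markers in the Dll1 levels was not tested. Dll1 shares 20.55% of its exon bases with A930024N18Rik on the opposite strand, which was not analysed here, and the libraries carry no strand, so their reads cannot be told apart.

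**Figure D2:**
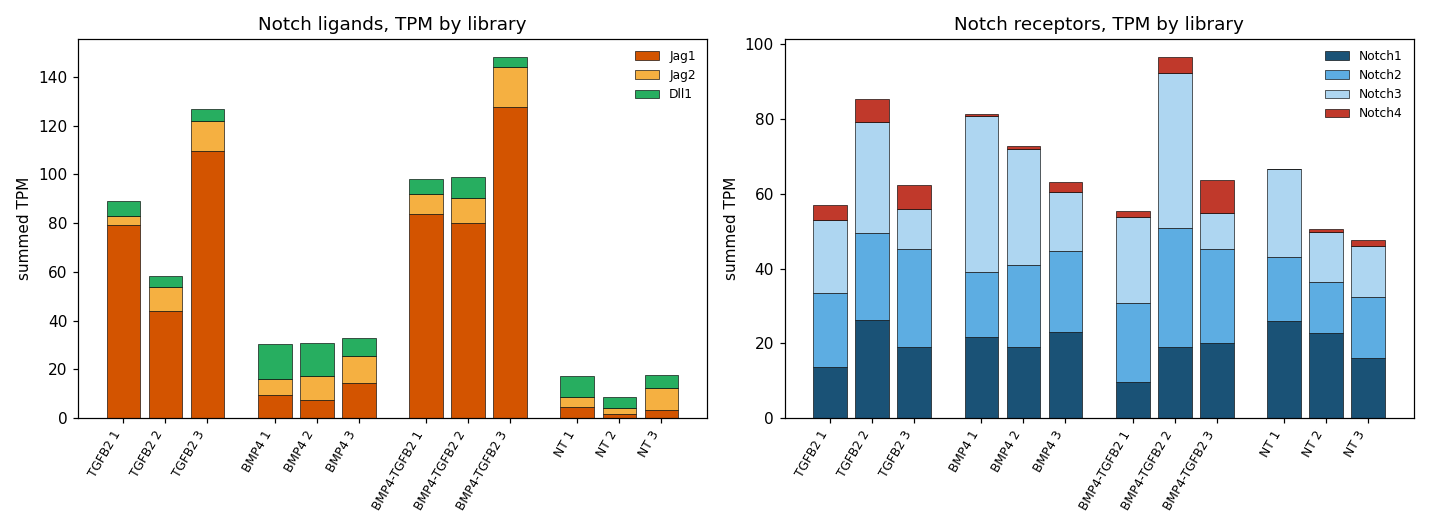
Stacked TPM of the 3 ligands (left) and 4 receptors (right) in each library; TPM is scaled for transcript length, so genes can be compared within a bar. Jag1 made up 75.6% to 89.2% of the ligand bar with TGFB2 and 19.3% to 26.6% in NT, while the receptor bars of the groups overlap.

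Set beside each other on the TPM scale, which is adjusted for transcript length, the ligands changed rank. Their summed level averaged 91.3 ± 34.3 TPM with TGFB2, 31.3 ± 1.22 TPM with BMP4 and 115 ± 28.7 TPM with both, against 14.5 ± 5.09 TPM in NT. Jag1 held 75.6%, 86.5% and 89.2% of that sum in the TGFB2 libraries and 81.1%, 85.1% and 86.2% with both, against 19.3%, 19.9% and 26.6% in NT. In the BMP4 libraries its share was 24.1%, 31.3% and 43.7%. Dll1 held 22.7% to 47.5% of the ligand level with BMP4, 3.91% to 7.72% with TGFB2 and 2.74% to 8.56% with both, against 31.4% to 51.7% in NT. In mean TPM, Jag1 was the second highest of the 10 members with TGFB2 (77.7 ± 32.8) and with both ligands (97.2 ± 26.6), the sixth with BMP4 (10.4 ± 3.51), and the eighth in NT (3.22 ± 1.42). Hes1 was the highest and Heyl the lowest in every group. Shares and ranks are descriptions of 3 libraries a group and were not tested. TPM also moves with the transcript lengths assigned in each library: Notch1 had 13.7 TPM in TGFB2 replicate 1 and 26.2 TPM in replicate 2, at 82.3 and 93.6 CPM.

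Among the receptors, Notch2 and Notch4 rose with TGFB2. Notch2 (ENSMUSG00000027878.11, chromosome 3, 98013527 to 98150361) is a widely expressed receptor. Notch2 had 141, 160.0 and 175 CPM with TGFB2, 127, 148 and 158 CPM with BMP4 and 153, 209.5 and 180.5 CPM with both, against 114, 98.9 and 114 CPM in NT. All 9 treated libraries lay above the 3 NT libraries. The rise was 0.54 ± 0.14 log2 units with TGFB2 (adjusted p = 0.0191) and 0.73 ± 0.14 with both (adjusted p = 0.00331). With BMP4 the change was 0.40 ± 0.14 (adjusted p = 0.141), called with the replicate block (0.39, adjusted p = 0.0446). The rise with TGFB2 was not called without TGFB2 replicate 3 (adjusted p = 0.0684), without NT replicate 2 (0.0818) or in limma on TPM values (0.0656 to 0.0700). With the replicate block this rise was called, at 0.53 (adjusted p = 0.00481).

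Notch4, known mainly as an endothelial receptor and, in mouse mammary tumours, as a gene activated by viral insertion, was the lowest of the receptors per length. The gene (ENSMUSG00000015468.14) lies on chromosome 17, 34564268 to 34588503. It had 9.24, 12.6 and 27.7 CPM with TGFB2 and 4.83, 8.54 and 23.8 CPM with both, against 0.548, 1.95 and 4.59 CPM in NT, from 21 to 153 counts in NT and 175 to 1000 counts where TGFB2 was present. In the BMP4 libraries it had 0.952, 1.71 and 5.17 CPM. Both groups with TGFB2 lay above NT, though the lowest combined library exceeded the highest NT library by little. With TGFB2 Notch4 rose by 2.81 ± 0.86 log2 units (7.01-fold; adjusted p = 0.0372), with both the change was 2.39 ± 0.85 (adjusted p = 0.0588) and with BMP4 0.14 ± 0.83 (adjusted p = 0.962).

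The replicate spread of Notch4 was wide and followed the replicate number. Its replicate 1 library was the lowest and its replicate 3 library the highest in all 4 groups, an agreement of order shared by 8.45% of all genes tested. The TGFB2 call was lost without TGFB2 replicate 2 (adjusted p = 0.0564) or 3 (0.114) and without NT replicate 1 (0.0809) or 2 (0.123). With the replicate block Notch4 rose with TGFB2 by 3.05 ± 0.26 log2 units (adjusted p = 1.8e-05). The change with both ligands was called without BMP4-TGFB2 replicate 1 (adjusted p = 0.0464), without NT replicate 3 (0.0387), with no replicate 1 library (0.0481) and by DESeq2 (0.00774). It was called with the replicate block as well (2.45, adjusted p = 4.6e-05), though pairing is not settled in that comparison. With BMP4, the log2 fold change was -0.83 without BMP4 replicate 3 and 1.06 without NT replicate 3. Of the 6 endothelial markers, 4 were tested and 0 were called in any comparison. Their sums were 2.53 to 4.29 CPM with TGFB2, 1.80 to 3.45 CPM with BMP4 and 2.62 to 4.09 CPM with both, against 2.38 to 3.63 CPM in NT. These sums had the replicate order of Notch4 in every group but BMP4. Only Cdh5 had separated libraries, lower with BMP4 than with TGFB2 (-1.42, adjusted p = 0.140) and higher with both than with BMP4 (1.47, adjusted p = 0.118). The part of these markers in the Notch4 levels was not tested.

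Notch1, a receptor of luminal cells, and Notch3, a receptor of luminal progenitors and of the mural cells of vessels, were not called in any comparison. Notch1 had 82.3, 93.6 and 87.2 CPM with TGFB2, 106, 117 and 94.1 CPM with BMP4 and 64.1, 94.7 and 65.1 CPM with both, against 132, 91.1 and 99.7 CPM in NT. Its change with both ligands was -0.53 ± 0.18 log2 units (adjusted p = 0.0501). That change was called in DESeq2 (adjusted p = 0.0282), in limma voom (0.0433), with RLE scaling (0.0476), without filter (0.0379), and without BMP4-TGFB2 replicate 2 (0.0128) or NT replicate 2 (0.0482). The replicate block, whose pairing is not settled in that comparison, also called it (-0.54, adjusted p = 0.0243). Notch3 had 99.8, 106 and 55.0 CPM with TGFB2, 173, 147 and 72.2 CPM with BMP4 and 126, 149.5 and 52.1 CPM with both, against 111, 54.0 and 60.6 CPM in NT. Its SE against NT was 0.44 in each comparison, with log2 fold changes of 0.21, 0.80 and 0.54 for TGFB2, BMP4 and both. The replicate 3 library was the lowest in each treated group.

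Markers of mural cells, which carry Notch3, and of fibroblasts were also measured. The 6 mural markers summed to 8.89 to 21.6 CPM with TGFB2, 7.25 to 12.7 CPM with BMP4 and 8.16 to 17.9 CPM with both, against 6.40 to 9.15 CPM in NT; 2 of the 6 rose with TGFB2 (Kcnj8 and Pdgfrb), 1 with BMP4 (Kcnj8) and 2 with both (Kcnj8 and Rgs5). The 6 fibroblast markers summed to 14.8 to 23.5 CPM with TGFB2, 4.55 to 20.3 CPM with BMP4 and 10.7 to 23.9 CPM with both, against 3.85 to 13.2 CPM in NT, and Col1a1 and Pdgfra rose with TGFB2 and with both. No marker of these lists was at 0 in every library. Their part in the levels of Jag1, Notch3 and Notch4 was not tested. Per length, the receptors together averaged 68.3 ± 15.0 TPM with TGFB2, 72.5 ± 9.11 TPM with BMP4 and 71.9 ± 21.8 TPM with both, against 54.9 ± 10.3 TPM in NT, and the ranges of the groups overlapped. Notch4 held 7.11% to 10.6% of the receptor level with TGFB2, 0.579% to 4.41% with BMP4 and 3.12% to 13.8% with both, against 0.199% to 3.04% in NT.

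Hes1, a transcriptional repressor and the most used readout of Notch activity, rose with all 3 treatments. The gene (ENSMUSG00000022528.8) lies on chromosome 16, 30064384 to 30067796. It had 79.8, 81.1 and 86.0 CPM with TGFB2, 118, 82.6 and 68.6 CPM with BMP4 and 86.9, 99.0 and 90.8 CPM with both, against 54.5, 35.6 and 44.5 CPM in NT. Every treated library was above every NT library. The log2 fold changes were 0.87 ± 0.20 with TGFB2 (adjusted p = 0.00832), 0.998 ± 0.196 with BMP4 (adjusted p = 0.0138) and 1.04 ± 0.20 with both (adjusted p = 0.00261). The BMP4 call was lost without NT replicate 2 (adjusted p = 0.0696), the lowest library, and in a fit of the BMP4 and NT libraries alone (0.0647). With the replicate block the BMP4 change of Hes1 was 0.99 (adjusted p = 0.00487).

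Nrarp, which is induced by Notch and promotes the loss of the receptor's intracellular part, was not called in any comparison. It had 10.2, 12.6 and 16.2 CPM with TGFB2, 11.3, 15.5 and 10.9 CPM with BMP4 and 9.60, 13.5 and 14.8 CPM with both, against 12.8, 22.2 and 20.0 CPM in NT. NT replicate 1 lay within the range of each treated group, and the other NT libraries lay above all treated ones. Its log2 fold changes were -0.50 ± 0.26 with TGFB2 (adjusted p = 0.198), -0.54 ± 0.26 with BMP4 (adjusted p = 0.296) and -0.54 ± 0.26 with both (adjusted p = 0.152). The change with both was called without NT replicate 1 (-0.74, adjusted p = 0.0493). It was also called with the replicate block (-0.53, adjusted p = 0.0325), whose pairing is not settled in that comparison. Nrarp shares 79.4% of its exon bases with Gm38287 on the opposite strand, to which 0.0106 CPM was assigned on average. The libraries carry no strand, so reads from the shared bases cannot be told apart by strand. Heyl, a repressor of the Hey family, had 12, 10 and 20 counts with TGFB2, 7, 9 and 11 counts with BMP4 and 2, 6 and 8 counts with both, against 7, 8 and 3 counts in NT. With so few reads its change of 1.19 ± 0.65 with TGFB2 (adjusted p = 0.216) was not called, although the 3 TGFB2 libraries lay above NT. With BMP4 its change was 0.67 ± 0.66 (adjusted p = 0.660) and with both 0.05 ± 0.68 (adjusted p = 0.965), and these libraries overlapped NT.

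**Figure D3:**
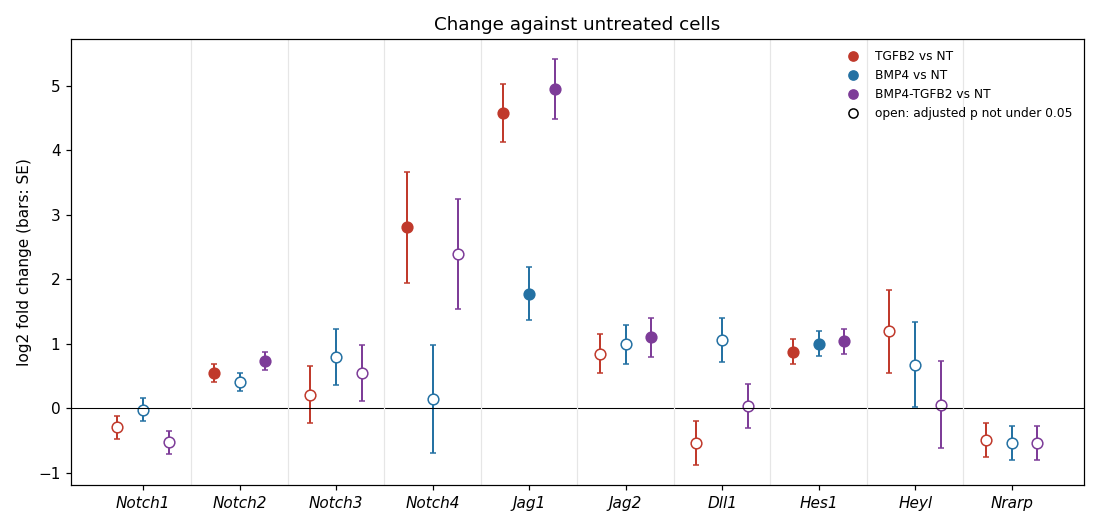
Log2 fold change of each member against NT with TGFB2, BMP4 and both ligands; bars are SE and filled points have an edgeR adjusted p under 0.05. Jag1 stands at 4.58 with TGFB2, 1.78 with BMP4 and 4.95 with both, and Hes1 is the other member filled in all 3 comparisons.

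The comparisons between treatments asked what the second ligand added and how BMP4 and TGFB2 differed. Adding BMP4 to TGFB2 changed 0 of the 10 members in edgeR, in DESeq2 and in limma voom, and 0 members had an unadjusted edgeR p under 0.05. Of all genes tested, 0% were called in edgeR, with 516 at an unadjusted p under 0.05, 51 called in DESeq2, 0 in limma voom and 6 with the replicate block. Jag1 differed by 0.37 ± 0.39 and Notch4 by -0.41 ± 0.80 log2 units between BMP4-TGFB2 and TGFB2, with overlapping libraries. Same-numbered libraries deviated together here: Jag1 was higher with both in 3 of 3 such pairs and Notch4 lower in 3 of 3. With the replicate block Jag1 differed by 0.44 ± 0.18 (adjusted p = 0.671) and Notch4 by -0.59 ± 0.23 (adjusted p = 0.641), each with an unadjusted p under 0.05. The Hes1 libraries of the combination, 86.9 to 99.0 CPM, all lay above the TGFB2 libraries, 79.8 to 86.0 CPM, and those of Heyl below, beside 6.77% of all genes tested that were separated. The Hes1 difference was 0.16 ± 0.19 and that of Heyl -1.14 ± 0.65.

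Adding TGFB2 to BMP4 raised 1 of the 10 members, Jag1, by 3.18 ± 0.43 log2 units (9.03-fold; adjusted p = 0.00125). Of all genes tested, 9.22% were called (4.24% higher, 4.98% lower). Jag1 was also the 1 member with separated libraries, at 275 to 473 CPM with both against 26.5 to 54.9 CPM with BMP4, where 28.3% of all genes were separated. Notch4 differed by 2.25 ± 0.85 (adjusted p = 0.132), Dll1 by -1.02 ± 0.35 (adjusted p = 0.0952) and Notch1 by -0.50 ± 0.18 (adjusted p = 0.113). Same-numbered libraries deviated together here, and with the replicate block Notch4 (2.27, adjusted p = 0.000245) rose and Dll1 (-0.99, adjusted p = 0.0253) fell beside Jag1, with 22.7% of all genes called. Dll1 was also called without BMP4 replicate 3 (adjusted p = 0.0310), and Notch1 without BMP4-TGFB2 replicate 2 (-0.71, adjusted p = 0.0341). DESeq2 and the fit with no filter called both Notch4 (adjusted p at most 0.0256) and Dll1 (at most 0.0343).

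BMP4 set directly against TGFB2 showed opposite differences for a pair of ligands. Jag1 was lower with BMP4, by -2.80 ± 0.42 log2 units (adjusted p = 0.00247), and Dll1 was higher with BMP4, by 1.59 ± 0.35 (3.02-fold; adjusted p = 0.0179). Thus 1 member was higher and 1 lower, where 7.83% of all genes tested were called (4.16% higher, 3.67% lower). The Dll1 call was lost without TGFB2 replicate 1 (adjusted p = 0.0757) or 3 (0.0759), without BMP4 replicate 1 (0.0678) or 2 (0.0712), with no replicate 1 library (0.117) and in limma on TPM values (0.0818). With the replicate block Dll1 was called, at 1.53 (adjusted p = 0.00376). Notch4 differed by -2.67 ± 0.86 (adjusted p = 0.0869), and with the replicate block it was called lower (-2.87, adjusted p = 8.5e-05; 19.6% of all genes called). It was also called in DESeq2, and without BMP4 replicate 3 (-3.65, adjusted p = 0.0481). Libraries were separated for 4 members, Notch1 and Dll1 higher and Notch4 and Jag1 lower with BMP4, beside 26.1% of all genes.

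The interaction, the change on adding BMP4 to TGFB2 minus the change with BMP4 alone against NT, was called for 0 of the 10 members in edgeR, in DESeq2 and in limma voom, and 2 members, Jag1 and Hes1, had an unadjusted edgeR p under 0.05. Of all genes tested, 0.157% were called (0.0522% higher, 0.104% lower). For Jag1 the interaction was -1.40 ± 0.56 log2 units (adjusted p = 0.491). With the replicate block it was called, at -1.33 ± 0.26 (adjusted p = 0.0376), with 1.83% of all genes called. For Hes1 the interaction was -0.83 ± 0.27 (adjusted p = 0.377), and -0.82 ± 0.25 with the block (adjusted p = 0.136). Negative values mean that the combination fell short of the sum of the log2 changes of the single ligands. The median over the members was -0.52, beside -0.02 over all genes tested.

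**Figure D4:**
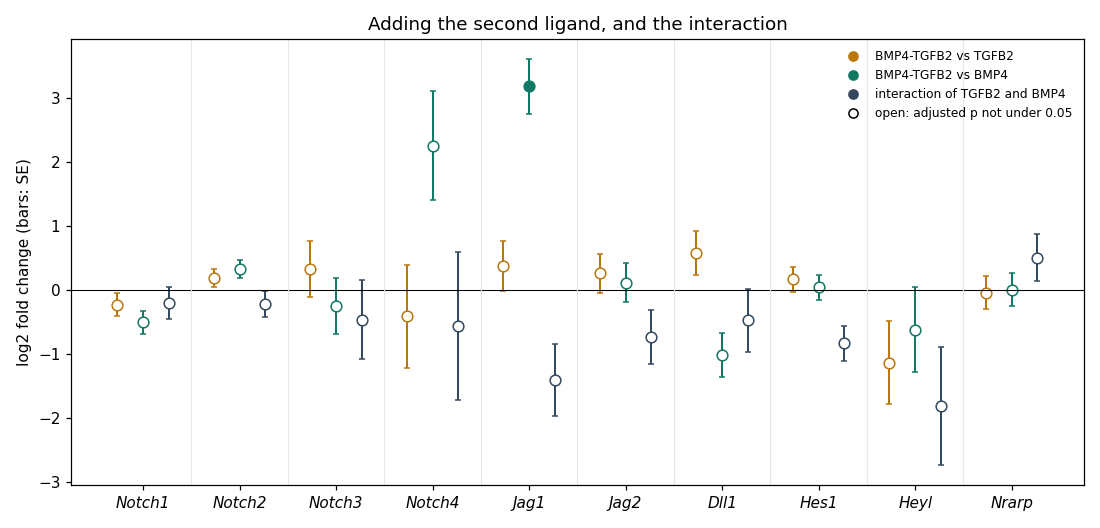
Log2 fold change of each member on adding BMP4 to TGFB2 (BMP4-TGFB2 vs TGFB2), on adding TGFB2 to BMP4 (BMP4-TGFB2 vs BMP4), and the interaction; bars are SE and filled points have an edgeR adjusted p under 0.05. The 1 filled point is Jag1 at 3.18, against 0.37 for adding BMP4 to TGFB2.

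Beyond the 10 members, a list of 54 other Notch pathway genes was examined, of which 46 were tested; the ligand genes Dll3, Dll4, Dlk1 and Dner, the targets Hes2, Hes3 and Hes5 and the glycosyltransferase Mfng did not pass the filter. With TGFB2, 6 of the 46 rose and 9 fell (32.6%, beside 22.4% called among all genes tested), and 10 and 12 with the replicate block (beside 37.8% of all genes), with a median log2 fold change of -0.01 beside 0.01 over all genes. The 13 genes of the nuclear complex and corepressors held some of the genes called. Of the other roles, 2 of 10 proteases rose and 1 fell, and 2 of 9 inhibitors and turnover genes rose and 2 fell. Of 4 glycosyltransferases 1 rose and 1 fell, 1 of 5 targets fell, the 1 ligand-like gene tested fell and 0 of 4 genes of ligand endocytosis were called. Among those with the smallest p were Numbl, a relative of the Notch inhibitor Numb (1.62 ± 0.15, adjusted p = 4.8e-05), Furin, which cuts the receptor precursors (1.19 ± 0.12, adjusted p = 6.3e-05), and Dtx1, a Notch-induced E3 ligase of the Deltex family (-4.45 ± 0.60, adjusted p = 0.000422). With both ligands the counts were also 6 and 9 (32.6%, beside 26.2% of all genes; median 0.07), among them Furin (1.33), Numbl (1.66) and Dtx1 (-4.90). Dtx1 had 0.591, 0.320 and 0.305 CPM with TGFB2, 1.98, 0.980 and 1.07 CPM with BMP4 and 0.221, 0.527 and 0.163 CPM with both, against 15.4, 7.28 and 4.41 CPM in NT. Thus the target genes did not move alike, with Hes1 higher and Dtx1 lower in each treatment.

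With BMP4, 6 of the 46 rose and 3 fell (19.6%, beside 5.45% called among all genes tested). The counts were 10 and 6 with the replicate block (beside 15.4% of all genes) and 3 and 4 with no replicate 1 library, and the median log2 fold change was 0.02 beside 0.00 over all genes. The smallest p-values were those of Numbl (1.08 ± 0.15, adjusted p = 0.00238), Neurl1a, an E3 ligase that acts on Notch ligands (2.38 ± 0.36, adjusted p = 0.00350), Adam10, a protease that cuts ligand-bound receptors (0.97 ± 0.18, adjusted p = 0.0104), and Dtx1 (-2.74 ± 0.55, adjusted p = 0.0152). Adam10 lost its call without NT replicate 2 (adjusted p = 0.0537) and Dtx1 without BMP4 replicate 2 (0.0634) or 3 (0.0626). With the replicate block Adam10 (adjusted p = 0.00443) and Dtx1 (0.00211) were called. Chosen after its values were seen, Rbpj, the DNA-binding protein of the pathway, had 70.9, 104 and 118 CPM with BMP4, against 167, 194 and 176 CPM in NT. It fell by 0.88 ± 0.19 on the log2 scale with BMP4 (adjusted p = 0.0197) and by 0.73 ± 0.18 with both (adjusted p = 0.0141). With TGFB2 its change was -0.54 ± 0.18 (adjusted p = 0.0550). With the replicate block Rbpj was called lower with TGFB2 (-0.55, adjusted p = 0.00444) and with BMP4 (-0.90, adjusted p = 0.00107). The BMP4 call of Rbpj was lost without BMP4 replicate 2 (adjusted p = 0.0511), without NT replicate 2 (0.0870) and in a fit of the BMP4 and NT libraries alone (0.0594). The count of 9 became 3 without BMP4 replicate 2 or NT replicate 2 and 5 without BMP4 replicate 3. Each fit without a single library also called fewer of all genes tested than the 835 of the full fit.

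Hey1, a repressor of the Hey family that answers to both Notch and BMP signals, differed more between BMP4 and TGFB2 than the other 45 pathway genes tested. It had 124, 79.6 and 24.9 CPM with BMP4, 4.28, 5.87 and 3.66 CPM with TGFB2 and 16.3, 18.8 and 9.29 CPM with both, against 24.6, 9.32 and 9.03 CPM in NT. The BMP4 libraries lay above all others and the TGFB2 libraries below all others. With the replicate block, Hey1 was called lower than NT with TGFB2 (-1.53, adjusted p = 0.0103) and higher with BMP4 (2.30, adjusted p = 0.00287). Without the block, its TGFB2 change was not called. BMP4 exceeded TGFB2 by 4.05 ± 0.60 log2 units (adjusted p = 0.00242). In that comparison 7 pathway genes were higher and 4 lower with BMP4 (23.9%, beside 7.83% of all genes), and 10 and 5 with the replicate block (beside 19.6%). They included Furin (-0.74), Dtx4 (-1.59, not called with no replicate 1 library, adjusted p = 0.0599) and Adam17, another receptor-cutting protease (0.57). The count of 11 became 6 without TGFB2 replicate 1 and 7 without TGFB2 replicate 3 or BMP4 replicate 2. Here too, each fit without a single library called fewer of all genes than the 1200 of the full fit. Against NT, Hey1, chosen for this contrast after its values were seen, rose by 2.41 ± 0.56 with BMP4 (adjusted p = 0.0292), a call lost without BMP4 replicate 1 (0.103) or 2 (0.0713), without NT replicate 2 (0.134) or 3 (0.0986) and in 4 other settings (0.0528 to 0.0853).

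Adding TGFB2 to BMP4 raised 4 and lowered 9 of the 46 (28.3%, beside 9.22% of all genes), and 4 and 11 with the replicate block (beside 22.7%), with Furin (0.88), Adam17 (-0.65) and Dlk2, a Delta-like protein that lacks the receptor-binding domain of the ligands (-3.19), among those with the smallest p. The count of 13 became 6 without BMP4 replicate 1 or 2 or BMP4-TGFB2 replicate 1 or 3, and 7 with no replicate 1 library. Fewer of all genes than the 1412 of the full fit were likewise called in each fit without a single library. Adding BMP4 to TGFB2 changed 0 of the 46 in edgeR, DESeq2 and limma voom, with 2 at an unadjusted p under 0.05. The interaction was called for 0 in edgeR and in limma voom, for 1 in DESeq2 and for 1 with the replicate block, with 9 at an unadjusted p under 0.05.

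**Figure D5:**
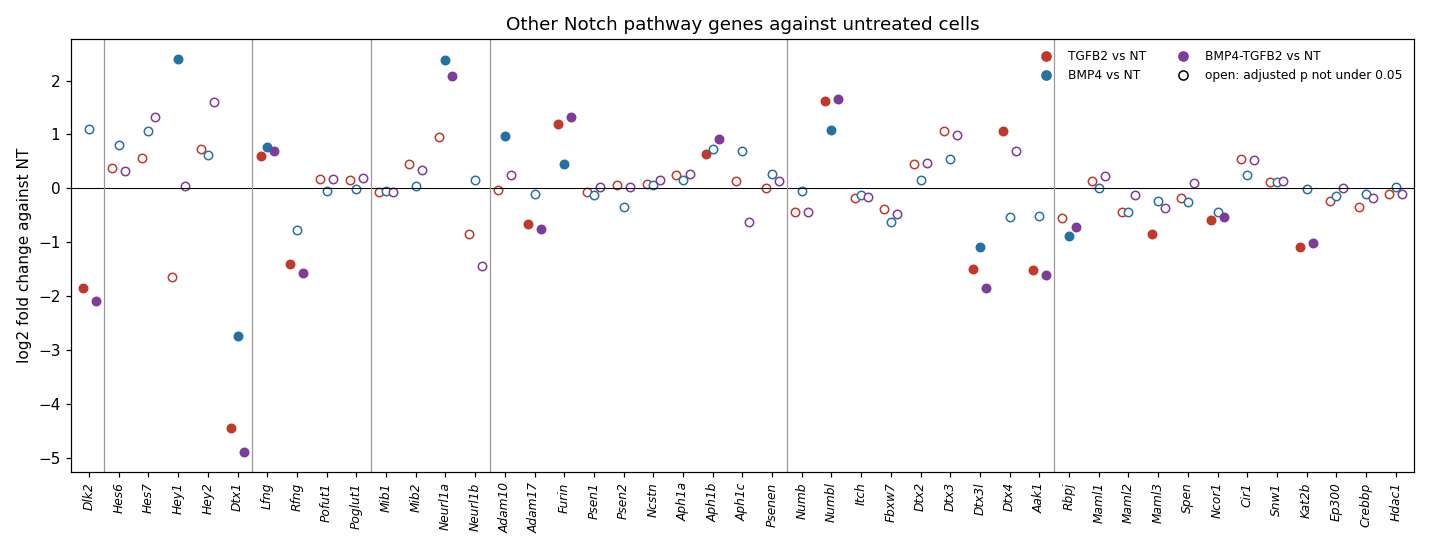
Log2 fold change against NT of the pathway genes outside the 10 members that were tested and are reported here, with TGFB2, BMP4 and both; filled points have an edgeR adjusted p under 0.05, and vertical lines part the ligand-like genes, targets, glycosyltransferases, ligand endocytosis, proteases, inhibitors and turnover, and nuclear complex. Dtx1 lies at -4.45 with TGFB2 and -2.74 with BMP4, and Numbl is above 0 in all 3 comparisons.

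Genes most like each of the 5 members called against NT were sought by Pearson correlation of log2 CPM over the 12 libraries, which share groups and replicate numbers, so the values are descriptions. Jag1 was most like Fam214b (r = 0.992), Antxr2 (0.991) and Gpm6b (0.986). With TGFB2 these genes rose by 1.82, 2.03 and 5.34 log2 units, beside 4.58 for Jag1. Notch2 was most like Vps37a (0.982), Itgav (0.978) and Dapp1 (0.966), and Hes1 most like Stxbp2 (0.973), Sstr2 (0.968) and Osbpl5 (0.960). Notch4 was most like Col8a1 (0.975), Dpy19l1 (0.966) and Zfp9 (0.962), and Jag2 most like Eif5a2 (0.963), Col12a1 (0.943) and Hip1 (0.942).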

How the data were processed

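RNA-seq of 12 libraries was read from the submitters' gene tables. Estimated counts from Salmon, not normalized, and TPM, scaled by the authors for transcript length and depth, were used as deposited. The submitters' processing notes name bcl2fastq 2.17, STAR 2.7.5b, Salmon 1.2.1 and GRCm38.p6, with no settings or roles stated there. Rounding the counts changed the total by 0.000361%. One model of the 4 groups over all 12 libraries was fitted with edgeR 4.0.16 in R 4.3.3 (quasi-likelihood test, TMM, filterByExpr with a minimum count of 10), leaving 15319 genes with 99.9% of the counts. TMM factors were 0.971 to 1.03 and the common BCV (the biological coefficient of variation) 0.299. There were 7 comparisons, each with Benjamini-Hochberg adjustment over these genes. DESeq2 1.42.0, limma 3.58.1 (voom, and log2 of TPM plus 0.1 or 1), RLE scaling, no filter, only the groups compared, the replicate block and leaving out each library were alternatives; leaving out every replicate 1 library was added after the data were seen. Scripts were tested on simulated data.

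Deviations from the group mean of same-numbered libraries correlated at 0.131 to 0.725 in the 5 comparisons other than BMP4-TGFB2 with NT, where the lowest was 0.0253, so a block was read as pairing in those 5 and in the interaction, which is a difference of a pair of them; the pairing comes from the labels' numbers and this check. All 12 libraries are unstranded and from 1 sequencing batch per the deposited metadata. Members and gene lists were chosen with earlier results of these data known. Genes named from the wider pathway list are the 4 with the smallest p among those called in a comparison, and the genes named as most alike are the 3 with the highest correlation of log2(CPM + 0.5), predicted genes skipped. Of the pathway genes this rule names, 1 is not reported here.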

Additional observations from a re-analysis of the deposited data

How the results depend on the processing

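Over 1100 member values under the alternatives, 985 kept their direction and side of the threshold, 28 lost a call, 43 gained one and 44 changed sign; of 330 values of named pathway genes, 315 were kept and 15 lost a call. Jag1 and Hes1 with TGFB2 and with both, Notch2 with both, and Jag1 in BMP4-TGFB2 vs BMP4 and BMP4 vs TGFB2 kept their calls in all 15 alternatives. The cause of the shifts listed here was not tested.

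Genes called numbered, in BMP4 vs NT, 1562 in DESeq2, 2356 with the replicate block, 527 in a fit of the groups compared and 293 to 756 without single libraries (293 without NT replicate 2). In BMP4-TGFB2 vs BMP4 they were 2219, 3476, 915 and 666 to 1329, lowest without BMP4 replicate 2. In BMP4 vs TGFB2 they were 1977 in DESeq2, 2998 with the block and 569 to 1143 without single libraries, lowest without BMP4 replicate 2. For TGFB2 vs NT the block gave 5798 and single libraries left out 2052 to 3665, and for BMP4-TGFB2 vs NT 6342 and 2551 to 4273, both lowest without NT replicate 2. In BMP4-TGFB2 vs TGFB2 they were 51 in DESeq2, 23 with no filter, 6 with the block, 2 and 1 in limma on log2(TPM + 0.1) and log2(TPM + 1), and 0 to 1 without single libraries. For the interaction they were 295 in DESeq2, 12 in voom, 173 with no filter, 280 with the block, 13 in limma on log2(TPM + 0.1), 6 with no replicate 1 library and 0 to 27 without single libraries, 0 without TGFB2 replicate 2.

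Members called in BMP4 vs NT numbered 4 in DESeq2 and with no filter, 5 with the block, 1 in voom, in limma on log2(TPM + 1), in a fit of the groups compared and with no replicate 1 library, and 0 to 2 without single libraries (0 without NT replicate 2, 1 without BMP4 replicate 1 or 3 or NT replicate 3). In BMP4-TGFB2 vs BMP4 they were 3 in DESeq2, with no filter and with the block, and 1 to 2 without single libraries. In BMP4 vs TGFB2 they were 1 in limma on both TPM scales and with no replicate 1 library, and 1 to 3 without single libraries. In TGFB2 vs NT they were 2 to 5, with 2 without TGFB2 replicate 3 or NT replicate 2. With the block they were 7 in BMP4-TGFB2 vs NT, beside 41.4% of all genes called. The block added Notch4 (2.45, edgeR adjusted p = 4.6e-05), higher, and Notch1 (-0.54, 0.0243) and Nrarp (-0.53, 0.0325), lower, in that comparison. There the deviations of same-numbered libraries correlated less than elsewhere, at 0.319, 0.0253 and 0.304. The replicate numbers run through all 4 groups, so whether pairing holds in this comparison too is not settled. For the interaction the block gave 1 (Jag1, -1.33, 0.0376). In the paired comparisons the block changed no member call beyond those given beside the results.

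Sign changes concerned log2 fold changes that were not called. In BMP4-TGFB2 vs BMP4, Nrarp was -0.0019 with RLE, -0.0020 in DESeq2, -0.0124 in voom and -0.0191 with the block. In BMP4-TGFB2 vs NT, Heyl was -0.1182 in voom and -0.0883 with the block. Notch1 in BMP4 vs NT was 0.0088 and 0.0074 in limma on log2(TPM + 0.1) and log2(TPM + 1) and 0.1353 with no replicate 1 library, and Hes1 in BMP4 vs TGFB2 was -0.0023, -0.0021 and -0.1581. Without single libraries, BMP4-TGFB2 vs BMP4 ran from -0.1273 to 0.1804 for Nrarp, -0.5477 to 0.0794 for Notch3, -0.1404 to 0.3134 for Jag2 and -0.1187 to 0.2941 for Hes1. Against NT, both ligands ran from -0.3706 to 0.4845 for Heyl and -0.2104 to 0.3558 for Dll1, and BMP4 from -0.1319 to 0.1499 for Notch1 and -0.8349 to 1.0585 for Notch4. BMP4-TGFB2 vs TGFB2 ran from -1.318 to 0.1823 for Notch4, -0.0105 to 0.4433 for Jag2 and -0.1992 to 0.1464 for Nrarp. BMP4 vs TGFB2 ran from -0.1359 to 0.277 for Hes1, -0.0761 to 0.3267 for Jag2 and -0.2232 to 0.1442 for Nrarp, and the Notch4 interaction from -1.4736 to 0.4154. Heyl had 2 to 20 counts a library, the lowest depth of the members.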
